A study of Mus musculus with 4 samples.

Results

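The genes described here are 10 airway secretory genes, chosen by name from the 21931 genes of the deposited expression table: the secretoglobins Scgb1a1, Scgb3a1 and Scgb3a2, the BPI fold proteins Bpifa1 and Bpifb1, and Cyp2f2, Cbr2, Reg3g, Hp and Gabrp. All 10 were found in the table, each as 1 row, and all 10 passed the filter on low counts. Earlier results of these data were known when the 10 genes and the gene lists below were chosen. Their counts, set beside those of all genes, are thus descriptions. The series asked which genes differ in mouse lung after knockout of Dnah9, which encodes a motor protein of motile cilia. Whole lung tissue was taken from C57BL6 mice at 2 months of age that had received no further treatment. The 4 RNA libraries comprised 2 with the genotype Dnah9 knockout, 1 with the genotype Hez, a label that is not spelled out and is kept as written, and 1 with the genotype wild type. The sources used here do not give the knockout allele, the part of Dnah9 that it removes, or whether the 2 knockout libraries came from separate animals or litters.

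Club cells are the secretory cells of the small airways. They release secretoglobins, which are small secreted dimeric proteins, and they metabolise inhaled chemicals through cytochrome P450 enzymes. Scgb1a1 is the gene by which club cells are defined, whereas Scgb3a1, Bpifa1 and Bpifb1 are known mainly from secretory cells of the larger airways, where BPI fold proteins form part of the mucosal defence against bacteria. In a bulk tissue library, fewer cells of a type and less RNA per cell cannot be told apart.

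The total read count was 16382227 and 15860478 in knockout libraries 1 and 2, 16553480 in the Hez library and 16106514 in the wild-type library. Dnah9 itself had 240 and 254 reads in the knockout libraries, 420 in Hez and 917 in wild type, so the lowest 2 counts lay in the libraries labelled knockout (log2 fold against wild type -1.88, SE 0.145, edgeR adjusted p = 0.00864). Genes of the lung were abundant in each library: Sftpc, the surfactant protein C gene that defines alveolar type 2 cells, stood at 13876 and 13779 CPM in the knockout libraries, 12686 CPM in Hez and 12168 CPM in wild type (CPM is the read count relative to the library total after TMM scaling). Because wild type and Hez had 1 library each, tests against either take their error from the 2 knockout libraries and, by moderation, from other genes, and assume that the single libraries vary alike.

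Promoters were available for 7 of the 10 genes, from RefSeq on build GRCm38.p6, as 250 bases before and 50 bases after the start of transcription. The 4 shown are those of the called genes among these 7, Scgb3a1 and Bpifa1, and of the enzyme genes Cyp2f2 and Cbr2, whose differences were smaller. Capitals mark exact matches, on either strand, to TNTTTAC (FOXA factors), TTNNGNAA (C/EBP factors), CTCAAG (NKX2-1) or the palindrome of the glucocorticoid receptor. They are written 5′ to 3′ along the gene.
Scgb3a1 (chr11:49663345-49663644, plus strand): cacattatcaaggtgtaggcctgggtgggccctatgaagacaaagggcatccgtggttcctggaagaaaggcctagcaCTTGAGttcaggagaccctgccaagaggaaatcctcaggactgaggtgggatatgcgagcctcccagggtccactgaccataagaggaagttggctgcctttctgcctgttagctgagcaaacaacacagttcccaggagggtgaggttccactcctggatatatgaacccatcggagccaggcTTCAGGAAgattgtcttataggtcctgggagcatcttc
Bpifa1 (chr2:154142630-154142929, plus strand): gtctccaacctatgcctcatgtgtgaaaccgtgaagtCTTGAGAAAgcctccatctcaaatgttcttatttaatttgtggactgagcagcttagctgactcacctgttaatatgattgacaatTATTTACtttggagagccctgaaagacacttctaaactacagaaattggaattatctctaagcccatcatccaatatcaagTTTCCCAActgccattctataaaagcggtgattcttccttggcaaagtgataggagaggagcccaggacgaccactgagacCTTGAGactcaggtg
Cyp2f2 (chr7:27119705-27120004, plus strand): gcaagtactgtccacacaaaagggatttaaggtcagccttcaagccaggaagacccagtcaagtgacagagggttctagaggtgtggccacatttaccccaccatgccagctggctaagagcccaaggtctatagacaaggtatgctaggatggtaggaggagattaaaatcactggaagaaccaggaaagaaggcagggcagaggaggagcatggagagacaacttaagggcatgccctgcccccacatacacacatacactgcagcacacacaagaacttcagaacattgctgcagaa
Cbr2 (chr11:120731972-120732271, minus strand): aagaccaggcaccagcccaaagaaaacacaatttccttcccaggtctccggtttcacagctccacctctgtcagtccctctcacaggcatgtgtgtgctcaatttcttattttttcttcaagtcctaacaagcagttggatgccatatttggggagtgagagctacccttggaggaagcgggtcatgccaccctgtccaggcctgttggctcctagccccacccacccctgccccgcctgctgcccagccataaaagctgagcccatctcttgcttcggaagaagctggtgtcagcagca
The Scgb3a1 promoter held 2 matches, 1 to the NKX2-1 letters at position -172 from the start and 1 to the C/EBP letters at position 13. The Bpifa1 promoter held 5 matches, 2 to C/EBP, 2 to NKX2-1 and 1 to FOXA, and the first NKX2-1 and C/EBP matches overlap in it. The Cyp2f2 and Cbr2 windows held 0. Over the 8 promoters of the 7 genes, Bpifb1 having 2, FOXA letters were found in 2, C/EBP letters in 2, NKX2-1 letters in 3 and the glucocorticoid receptor letters in 0. Of all 32851 promoters in the table, 12.4% held the FOXA letters, 40.7% the C/EBP letters, 15.9% the NKX2-1 letters and 0.475% the glucocorticoid receptor letters. A match describes the letters only.

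The 10 genes spanned a wide range of levels. Scgb1a1 (ENSMUSG00000024653, chromosome 19, 9061000 to 9065322 on GRCm39) had the highest FPKM of all genes in each of the 4 libraries, at 30815 and 25442 FPKM in knockout, 28020 FPKM in Hez and 35361 FPKM in wild type (FPKM is the read count relative to gene length and library total). The carbonyl reductase gene Cbr2 came next, between 1638 and 2013 FPKM over the 4 libraries, and its range did not overlap that of any other member. Cyp2f2 (557 to 810 FPKM), Hp (541 to 665 FPKM), Scgb3a1 (315 to 878 FPKM), Scgb3a2 (361 to 742 FPKM) and Bpifa1 (139 to 398 FPKM) followed in order of their mean. Each of these ranges overlapped that of its neighbour in the order. Bpifb1 (28.4 to 82.5 FPKM), Gabrp (36.4 to 44.2 FPKM) and Reg3g (17.6 to 63.1 FPKM) were the lowest and overlapped one another. Together the 10 genes took 2.02% and 1.77% of all reads in the knockout libraries, 1.94% in Hez and 2.46% in wild type.

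**Figure D1:**
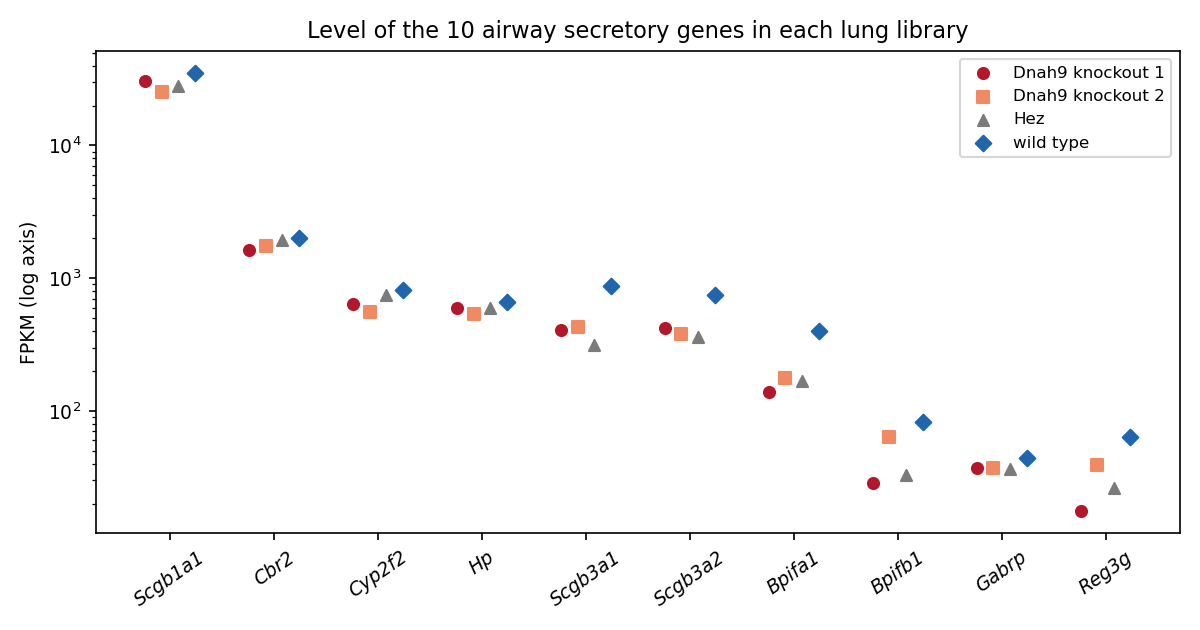
FPKM of each gene (log axis) in the 2 knockout libraries, the Hez library and the wild-type library, in order of mean level. Scgb1a1 stood far above the rest in all 4 libraries, and the wild-type point was the highest for each of the 10 genes.

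Against wild type, all 10 genes had a lower level in the knockout libraries, and 3 of them passed the test: Scgb3a1, Scgb3a2 and Bpifa1. Over all genes tested, 0.0531% passed in this comparison (edgeR quasi-likelihood test, Benjamini-Hochberg adjusted p below 0.05), and 0.0399% passed on the lower side. A negative log2 fold was found for 10 of 10 members and for 48.9% of all tested genes. Both knockout libraries lay below wild type for 10 of 10 genes, where 33.4% of all tested genes did so. The Hez library lay below wild type for 10 of 10 as well (50.4% of all tested genes), and 25.2% of all tested genes had all 3 other libraries below the wild-type one. Thus the wild-type library was the highest for each member, and a lower level was not limited to the knockouts.

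Scgb3a1 (ENSMUSG00000064057, chromosome 11, 49554437 to 49555945 on GRCm39) encodes a small secretoglobin of airway secretory cells. It stood at 245 and 255 CPM in the knockout libraries, 189 CPM in Hez and 522 CPM in wild type. The knockout libraries were close to each other, and Hez was the lowest. Against wild type its log2 fold was -1.06 (SE 0.089, n = 2 against 1, edgeR adjusted p = 0.00864), or 52.1% lower. Against Hez the log2 fold of 0.40 (SE 0.0938, edgeR adjusted p = 0.65) missed the threshold, and both knockout libraries lay above Hez.

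Scgb3a2 (ENSMUSG00000038791, chromosome 18, 43897354 to 43900464 on GRCm39) is the second member of that subfamily and is expressed along the bronchioles. It stood at 373 and 331 CPM in the knockout libraries, 319 CPM in Hez and 650 CPM in wild type, so the 3 other libraries lay together well below wild type. Its log2 fold against wild type was -0.88 (SE 0.0971, edgeR adjusted p = 0.0365). Against Hez it was 0.15 (95% interval -0.09 to 0.38, edgeR adjusted p = 0.9997).

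Scgb1a1 encodes the main secreted protein of club cells. It stood at 14774 and 12087 CPM in the knockout libraries, 13360 CPM in Hez and 16734 CPM in wild type. Hez lay between the knockout libraries and wild type was highest. The log2 fold against wild type was -0.32 (SE 0.0974, edgeR adjusted p = 0.677) and did not pass. Against Hez it was 0.01 (95% interval -0.22 to 0.23).

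Bpifa1 (ENSMUSG00000027483, chromosome 2, 153984800 to 153991139 on GRCm39) encodes a secreted surface-active protein of the upper airways. It stood at 216 and 272 CPM in the knockout libraries, 260 CPM in Hez and 611 CPM in wild type. Its log2 fold against wild type was the most negative of the 10 genes, at -1.33 (SE 0.129, edgeR adjusted p = 0.021), which is 60.1% lower. Hez lay between the knockout libraries, and the fold against it was -0.09 (95% interval -0.40 to 0.22).

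Bpifb1 (ENSMUSG00000027485, chromosome 2, 154032738 to 154062289 on GRCm39) lies on the same chromosome and strand and encodes a larger BPI fold protein of airway secretory cells. It stood at 103 and 231 CPM in the knockout libraries, 119 CPM in Hez and 297 CPM in wild type. The 2 knockout libraries differed from each other 2.23-fold, and knockout 2 lay closer to wild type than to knockout 1. The log2 fold against wild type, -0.83, thus had a wide error (SE 0.352, edgeR adjusted p = 0.947).

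Reg3g (ENSMUSG00000030017, chromosome 6, 78443252 to 78445855 on GRCm39) encodes a secreted antibacterial lectin. It stood at 37.4 and 82.0 CPM in the knockout libraries, 55.1 CPM in Hez and 133 CPM in wild type. Here too knockout 2 was the higher of the pair, 2.19-fold, and Hez lay between them. The log2 fold against wild type was -1.15 (SE 0.338, edgeR adjusted p = 0.632).

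The 2 enzyme genes had smaller differences, and neither was called. Cyp2f2 (ENSMUSG00000052974, chromosome 7, 26819334 to 26833085 on GRCm39), the cytochrome P450 of club cells that activates naphthalene, stood at 1313 and 1125 CPM in the knockout libraries, 1503 CPM in Hez and 1630 CPM in wild type. Both knockout libraries lay below both others. The log2 folds were -0.42 against wild type (SE 0.0946, edgeR adjusted p = 0.417) and -0.30 against Hez (SE 0.0949, edgeR adjusted p = 0.892).

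Cbr2 (ENSMUSG00000025150, chromosome 11, 120620315 to 120622940 on GRCm39), a carbonyl reductase abundant in mouse lung, stood at 2189 and 2299 CPM in the knockout libraries, 2579 CPM in Hez and 2656 CPM in wild type. Again the knockout pair lay below both others. The log2 folds were -0.24 against wild type (SE 0.064, edgeR adjusted p = 0.547) and -0.20 against Hez (SE 0.064, edgeR adjusted p = 0.892).

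Hp (ENSMUSG00000031722, chromosome 8, 110301760 to 110305804 on GRCm39), which encodes the haemoglobin-binding protein haptoglobin, stood at 957 and 867 CPM in the knockout libraries, 963 CPM in Hez and 1061 CPM in wild type. Its log2 fold against wild type was -0.22 (SE 0.084, edgeR adjusted p = 0.868). Gabrp (ENSMUSG00000020159, chromosome 11, 33500781 to 33528959 on GRCm39), the pi subunit of the GABA type A receptor, stood at 126 and 124 CPM in the knockout libraries, 123 CPM in Hez and 148 CPM in wild type. The 3 other libraries were nearly equal for Gabrp, and the fold against wild type was -0.25 (SE 0.0992, edgeR adjusted p = 0.908).

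**Figure D2:**
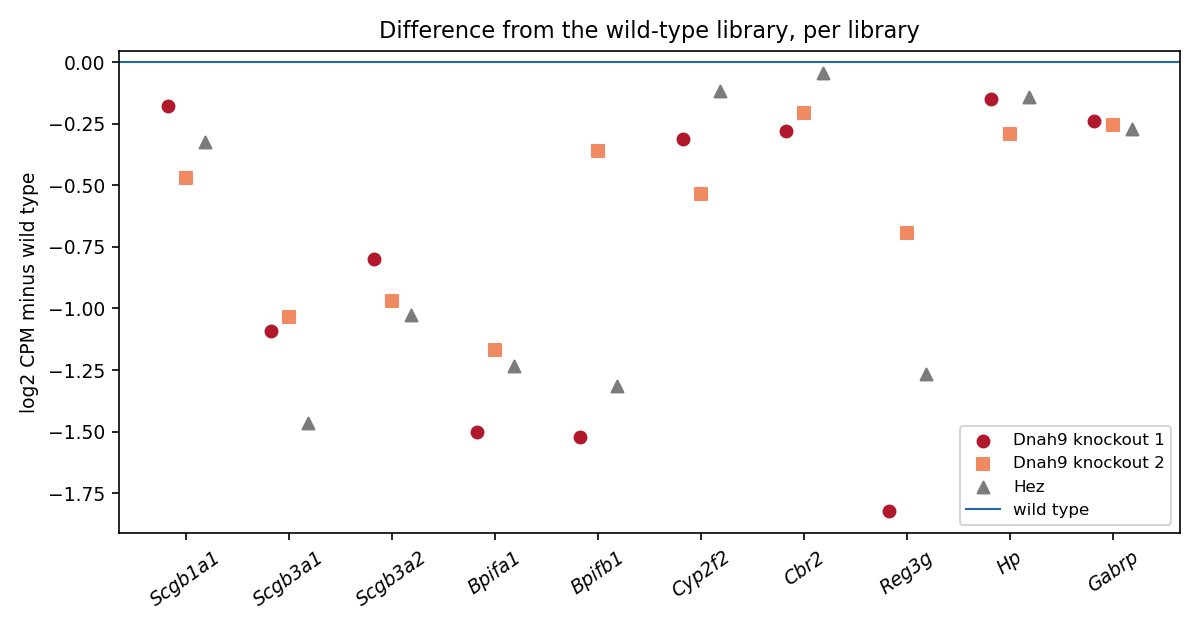
Log2 CPM of each gene in the knockout pair and in Hez, minus that in the wild-type library (line at 0). All points lie below the line. Among the Hez points, those of Scgb3a1, Scgb3a2, Bpifa1, Bpifb1 and Reg3g lie furthest down. Knockout 1 lies below Hez for Bpifa1, Bpifb1, Cyp2f2, Cbr2, Reg3g and, only just (-0.0086), Hp. Bpifb1 and Reg3g show the widest gap between the knockout libraries.

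Beside the 3 called genes, the other 7 had an unadjusted p below 0.05 against wild type, so all 10 did so on the lower side, where 3.37% of all tested genes did (5.18% in either direction). The 10 genes were chosen with results of these libraries known, so this count is a description. DESeq2 and limma-voom called the same 3 genes, where 0.106% and 0.0598% of all tested genes passed. Other settings changed the calls. Scgb3a2 and Bpifa1 did not pass without a filter on low counts (adjusted p = 0.167 and 0.131) or with a filter of 10 CPM (adjusted p = 0.176 and 0.16), and limma on log2 FPKM called 0 of the 3 (adjusted p = 0.743 to 0.791).

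Against the Hez library, edgeR called 0 of the 10 genes, and 0.00664% of all tested genes passed. DESeq2 and limma-voom also called 0 of them, and 0.0465% and 0.00664% of all tested genes passed with these tools. At an unadjusted p below 0.05 there were 3, Cyp2f2 and Cbr2 lower and Scgb3a1 higher, where 4.61% of all tested genes had such a p (2.11% on the lower side). Of the 10 folds, 4 were negative (47.5% of all tested genes) and 6 positive, and their median was 0.02, beside 0.01 over all tested genes. Both knockout libraries lay below Hez for Cyp2f2, Cbr2 and Hp (31.9% of all tested genes) and above it for Scgb3a1, Scgb3a2 and Gabrp (34.2%). For Scgb1a1, Bpifa1, Bpifb1 and Reg3g, Hez lay between them (33.9%). Cyp2f2, Cbr2 and Hp were thus the 3 genes with both knockout libraries below Hez and wild type alike, a pattern that 16.3% of all tested genes had. For Hp, knockout 1 (957 CPM) was almost level with Hez (963 CPM). For Gabrp, both knockout libraries (126 and 124 CPM) were almost level with Hez (123 CPM).

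**Figure D3:**
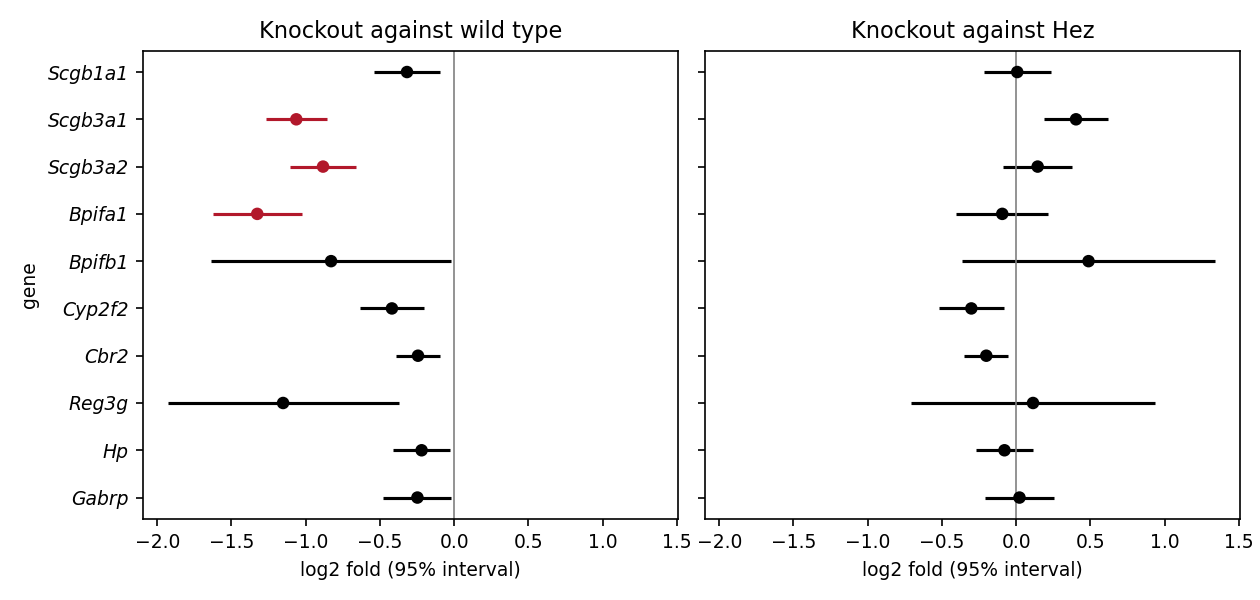
Log2 fold of each gene with its 95% interval, for knockout against wild type (left) and knockout against Hez (right), from the edgeR fit to all 4 libraries; red marks an adjusted p below 0.05. The intervals against wild type all lie below 0, whereas those against Hez lie on both sides.

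Hez and wild type had 1 library each, so they were compared without a test. The Hez library lay below wild type by 0.5 or more on the log2 scale for 5 of the 10 genes, Scgb3a1, Scgb3a2, Bpifa1, Bpifb1 and Reg3g, where 8.58% of all tested genes did. Their differences were -1.47, -1.03, -1.23, -1.32 and -1.26 in that order. Cbr2 at -0.04, Cyp2f2 at -0.12 and Hp at -0.14 were the nearest to wild type. The difference was -0.32 for Scgb1a1 and -0.27 for Gabrp. For Scgb3a1, Scgb3a2 and Gabrp, Hez was lower than either knockout library. The gap was small for Scgb3a2 in knockout 2 (331 CPM against 319 CPM in Hez). It was smaller still for Gabrp (126 and 124 CPM in the knockout libraries against 123 CPM in Hez). Any relation of these levels to the Dnah9 reads was not tested.

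When wild type and Hez were taken as a single group of 2 libraries, edgeR called 0 of the 10 genes, and 0.0136% of all tested genes passed. All 10 folds were negative, as were 50.9% over all tested genes. At an unadjusted p below 0.05 there were 3, all lower (Bpifa1, Cyp2f2 and Cbr2), where 5.05% of all tested genes had such a p and 2.75% on the lower side. DESeq2, with which 0.225% of all tested genes passed, called Cyp2f2 (adjusted p = 0.0485), and limma-voom called 0 of the 10 (0.00681% of all tested genes). Cyp2f2 had the smallest unadjusted p of the 10 in edgeR, with a log2 fold of -0.37 (SE 0.0887, adjusted p = 0.642). Scgb3a1, which differed most between the grouped libraries, stood at -0.51 (SE 0.374, adjusted p = 0.98). The direction rested on the wild-type library for 6 genes: without it, the log2 fold was 0.40 for Scgb3a1, 0.14 for Scgb3a2, 0.48 for Bpifb1 and 0.11 for Reg3g, and 0.02 for Gabrp and 0.0035 for Scgb1a1.

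The genes were also set against Scgb1a1 within a library, a ratio that does not depend on how libraries are scaled. For every 100 Scgb1a1 reads there were 1.66 and 2.11 Scgb3a1 reads in the knockout libraries, 1.41 in Hez and 3.12 in wild type. Bpifa1 had 1.46 and 2.25 reads in the knockout libraries, 1.95 in Hez and 3.65 in wild type, and Scgb3a2 had 2.53 and 2.74, 2.38 and 3.88 in the same libraries. The wild-type ratio was the highest for all 3. By contrast, Cyp2f2 had 8.89 and 9.31 reads per 100 in the knockout libraries, 11.2 in Hez and 9.74 in wild type. Cbr2 had 14.8 and 19.0 in the knockout libraries, 19.3 in Hez and 15.9 in wild type. Wild type lay within the range of the others for both enzyme genes. Bpifb1 had 0.70 and 1.91 in the knockout libraries, 0.891 in Hez and 1.77 in wild type, so that knockout 2 was highest. Reg3g had 0.253 and 0.678 in the knockout libraries, 0.413 in Hez and 0.792 in wild type, which was highest. Hp was lowest in wild type (6.48 and 7.17 in knockout, 7.21 in Hez, 6.34 in wild type), and for Gabrp wild type lay within the range of the others (0.85 and 1.03 in knockout, 0.921 in Hez, 0.887 in wild type). Scgb1a1 made up 96.0% and 95.4% of the reads of the 3 secretoglobins in the knockout libraries, 96.3% in Hez and 93.5% in wild type.

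**Figure D4:**
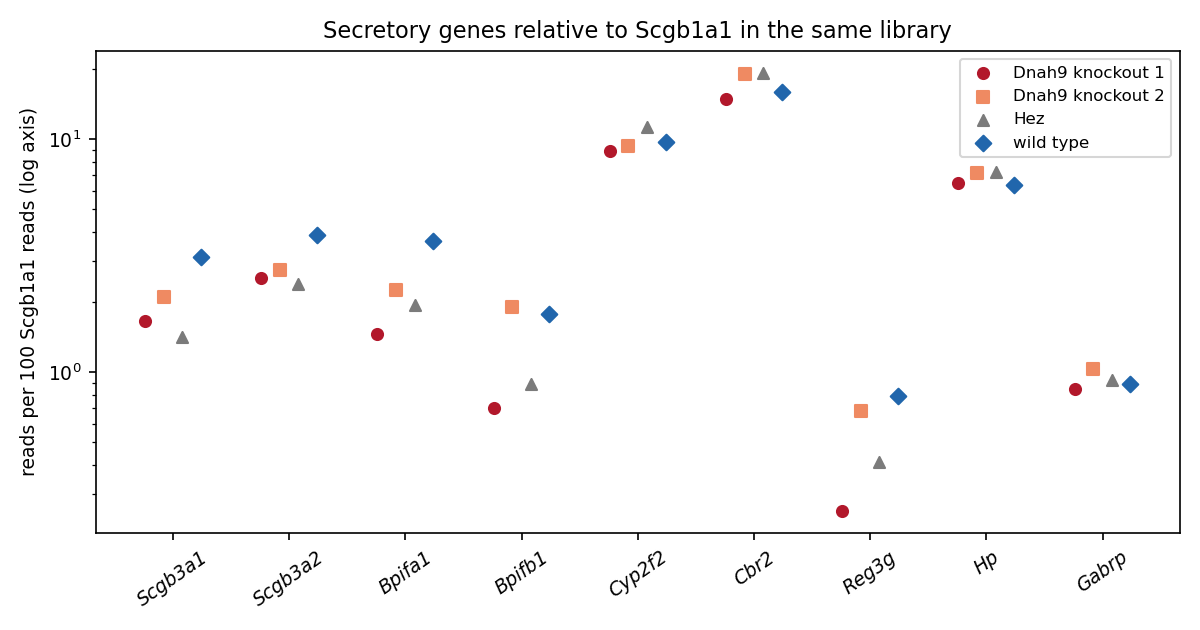
Reads of each gene per 100 Scgb1a1 reads in the same library (log axis), for the 2 knockout libraries, Hez and wild type. Wild type is the highest point for Scgb3a1, Scgb3a2 and Bpifa1 but not for Cyp2f2 and Cbr2. All 9 genes are higher relative to Scgb1a1 in knockout 2 than in knockout 1. The ratio is largest for Bpifb1 (1.91 against 0.70) and Reg3g (0.678 against 0.253). In CPM, Scgb1a1 itself had the lowest ratio of knockout 2 to knockout 1 (0.818). Scgb3a2 (0.888), Cyp2f2 (0.857), Hp (0.906) and Gabrp (0.991) were also lower in knockout 2 in CPM.

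The gap between the knockout libraries was large for Bpifb1 and Reg3g. On the log2 scale knockout 1 minus knockout 2 was -1.16 and -1.13, and 99.8% and 99.7% of the 4894 genes at 50 CPM or more had a smaller gap, the median being 0.08. Scgb3a1 (-0.06), Cbr2 (-0.07) and Gabrp (0.01) had gaps below that median. Unlike Bpifb1 and Reg3g, which were highest in wild type, some genes of goblet cells, the mucus-secreting cells of the airway, or of type 2 immune responses had their highest level in knockout 2. Of the 25 tested genes in a list of airway mucins and mucosal defence genes, 9 were highest in knockout 2, 7 in knockout 1, 1 in Hez and 8 in wild type. Among the 9, Spdef (52 reads in knockout 2 and in wild type) and Foxa3 (19 against 18 reads) were nearly tied with wild type. Wild type was the highest for 25.2% of all tested genes, and the shares of the other libraries over all genes were not counted. Tff2, a peptide secreted with mucus, was among the list's 8 genes highest in wild type. It had 8.12 and 14.3 CPM in the knockout libraries, 7.38 CPM in Hez and 21.5 CPM in wild type. Tff2, Clca1, Retnla and Chil4 were picked after their values were seen and are given without a test. Clca1, a secreted product of goblet cells, stood at 7.44 and 590 CPM in knockout libraries 1 and 2, 9.80 CPM in Hez and 57.0 CPM in wild type. Retnla, a secreted protein of type 2 immune responses, is not in the mucosal defence list. It stood at 122 and 888 CPM in the knockout libraries, 54.2 CPM in Hez and 123 CPM in wild type. Chil4, a chitinase-like protein, had 2 and 859 reads in the knockout libraries, 0 in Hez and 29 in wild type. Knockout 2 stood above the other 3 libraries for Clca1, Retnla and Chil4, and the part of this in the Bpifb1 and Reg3g values was not tested.

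Of 16 further secretoglobin genes, 15 had 0 reads in every library, and Scgb1c1 stood at 0.799 and 0.692 CPM in the knockout libraries, 1.39 CPM in Hez and 2.10 CPM in wild type (edgeR adjusted p = 0.928). Many of these genes have near-identical copies, and how shared reads were counted is not given. Of 14 further BPI fold genes, 8 had 0 reads in every library and 3 were tested, of which 1 was lower and 2 higher in knockout than in wild type, with 0 called by edgeR, DESeq2 or limma-voom and 0 at an unadjusted p below 0.05. Lbp, the lipopolysaccharide-binding protein, stood at 57.8 and 66.8 CPM in the knockout libraries, 63.9 CPM in Hez and 70.9 CPM in wild type. Bpifb5 ranged from 5.86 to 7.05 CPM over the 4 libraries and Bpifa2 from 0.617 to 1.20 CPM.

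Of 30 other genes of club cells, 29 were tested, and 22 were lower and 7 higher in knockout than in wild type. The count called was 0 by edgeR, DESeq2 and limma-voom, and 11 lower and 1 higher had an unadjusted p below 0.05. The median log2 fold was -0.20, beside 0.0045 over all tested genes, where 48.9% were lower, 3.37% at such a p. Against Hez 14 were lower and 15 higher, with 0 called by any of these tools and a median of 0.03. At an unadjusted p below 0.05 against Hez there were 5 lower, where 2.11% of all tested genes were, and 2 higher. The 3 with the highest level were Sec14l3, a lipid-binding protein (1450 and 1478 CPM in knockout, 1534 CPM in Hez, 1658 CPM in wild type), Fmo2, a flavin-containing monooxygenase (991 and 1073, 1432 and 1212 CPM in the same libraries), and Selenbp1, a selenium-binding protein (662 and 532, 716 and 728 CPM). Their log2 folds against wild type were -0.18, -0.23 and -0.28, and none of the 3 passed (edgeR adjusted p = 0.831, 0.769 and 0.955).

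The list of airway mucins and mucosal defence genes had 30 members, of which 25 were tested. Of these 12 were lower and 13 higher in knockout than in wild type, with a median log2 fold of 0.05. EdgeR called 0 of them, with 7 lower and 1 higher at an unadjusted p below 0.05, whereas DESeq2 called Sult1d1 and Muc5b and limma-voom called Muc5b, all lower (0.106% of all tested genes passed with DESeq2 and 0.0598% with limma-voom). Against Hez 2 were lower and 23 higher, with 0 called by any of these tools, 1 lower and 9 higher at an unadjusted p below 0.05, and a median of 0.54. Over all 15055 tested genes, 7157 were lower and 7898 higher against Hez, 317 and 377 of them at such a p. The counts over all tested genes against wild type were 7365 lower and 7690 higher, 507 and 273 at such a p. The list's median difference from wild type was -0.51 and 0.03 in knockout libraries 1 and 2 and -0.70 in Hez. Its most abundant genes were the lysozyme gene Lyz2 (7163 and 5944 CPM in knockout, 5704 CPM in Hez, 5786 CPM in wild type), its paralogue Lyz1 (407 and 333, 252 and 288 CPM), whose reads may be shared with Lyz2, and the membrane mucin Muc1 (292 and 267, 248 and 261 CPM). Macrophages and alveolar type 2 cells also express lysozyme. The gel-forming mucin Muc5b, which club cells secrete, had 119 and 143 CPM in the knockout libraries, 78.1 CPM in Hez and 267 CPM in wild type, the same order of libraries as Scgb3a1. Its log2 fold against wild type was -1.03 (SE 0.125, edgeR adjusted p = 0.0575), and it was picked after its values were seen.

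Of 20 transcription factors and Notch receptors of the airway epithelium, 11 were lower and 9 higher in knockout than in wild type, with a median of -0.02 on the log2 scale. EdgeR, DESeq2 and limma-voom called 0, and 2 were higher at an unadjusted p below 0.05. Over all 15055 tested genes, 7690 were higher, 273 of them at such a p. Nfib stood at 254 and 245 CPM in the knockout libraries, 258 CPM in Hez and 255 CPM in wild type. Nkx2-1, the master regulator of lung epithelium, stood at 211 and 243 CPM in knockout, 205 CPM in Hez and 197 CPM in wild type. Notch2, a receptor needed for club cell fate, stood at 167 and 143 CPM in knockout, 157 CPM in Hez and 172 CPM in wild type.

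For all 15 markers of multiciliated cells, none of them at 0, the log2 fold of knockout against wild type was negative, with a median of -0.50. EdgeR, DESeq2 and limma-voom called 0, and 12 had an unadjusted p below 0.05. Over all tested genes 48.9% had a negative fold, and 3.37% were lower at such a p. Against Hez 12 of the 15 folds were positive, as were 7898 of 15055 over all tested genes. The summed level of the 15 markers was 852 and 850 CPM in the knockout libraries, 773 CPM in Hez and 1128 CPM in wild type. The most abundant were Tppp3 (-0.20, SE 0.0904), Dnah5, an outer arm heavy chain (-0.45, SE 0.1), and Foxj1, the transcription factor of motile ciliogenesis (-0.55, SE 0.0974). The folds of all 8 smooth muscle markers were negative too, with 7 at an unadjusted p below 0.05. EdgeR and limma-voom called 0 of these 8 markers, and DESeq2, with which 0.106% of all tested genes passed, called 1 (Cnn1). The smooth muscle markers had a median of -0.47 and sums of 1531 and 1355 CPM in knockout, 1179 CPM in Hez and 1951 CPM in wild type. Acta2 stood at -0.33, Myh11 at -0.41 and Des at -0.44. The part of both lists in the secretory values was not tested.

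Epithelial markers in general differed less. Of 10 pan-epithelial genes, 7 were lower and 3 higher in knockout than in wild type, with 0 called by the same 3 tools, 1 at an unadjusted p below 0.05 and a median of -0.10. Their sums were 1296 and 1307 CPM in knockout, 1227 CPM in Hez and 1354 CPM in wild type. Cdh1 stood at -0.06, Krt7 at 0.11 and Krt19 at -0.27 on the log2 scale. Markers of alveolar type 2 cells ran the other way: 12 of 12 were higher, with 0 called by the 3 tools, 9 at an unadjusted p below 0.05 and a median of 0.26. Over all 15055 tested genes, 7365 were lower and 7690 higher, 507 and 273 of them at such a p. The alveolar type 2 markers summed to 33330 and 31765 CPM in knockout, 28976 CPM in Hez and 28240 CPM in wild type. Sftpc, Sftpa1 and Sftpb stood at 0.18, 0.22 and 0.13. The part of this shift in the secretory values was not tested.

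Markers of basal cells, cartilage and squamous epithelium were low in each library. The 8 basal cell markers summed to 4.92 and 7.24 CPM in the knockout libraries, 5.26 CPM in Hez and 7.53 CPM in wild type, with Trp63, Aqp3 and Ngfr the highest and each below 3 CPM. The 12 cartilage markers summed to 3.94 and 5.79 CPM in knockout, 4.24 CPM in Hez and 4.14 CPM in wild type, led by Hapln1, Sox9 and Col9a3. The 8 markers of squamous epithelium summed to 2.52 and 3.96 CPM in knockout, 1.57 CPM in Hez and 1.60 CPM in wild type, with Sprr1a and Lor the 2 tested. In these 3 lists 0 genes were called by the 3 tools and 0 had an unadjusted p below 0.05 against wild type, and of the genes tested 1 of 4, 3 of 3 and 2 of 2 were higher in knockout than in wild type.

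**Figure D5:**
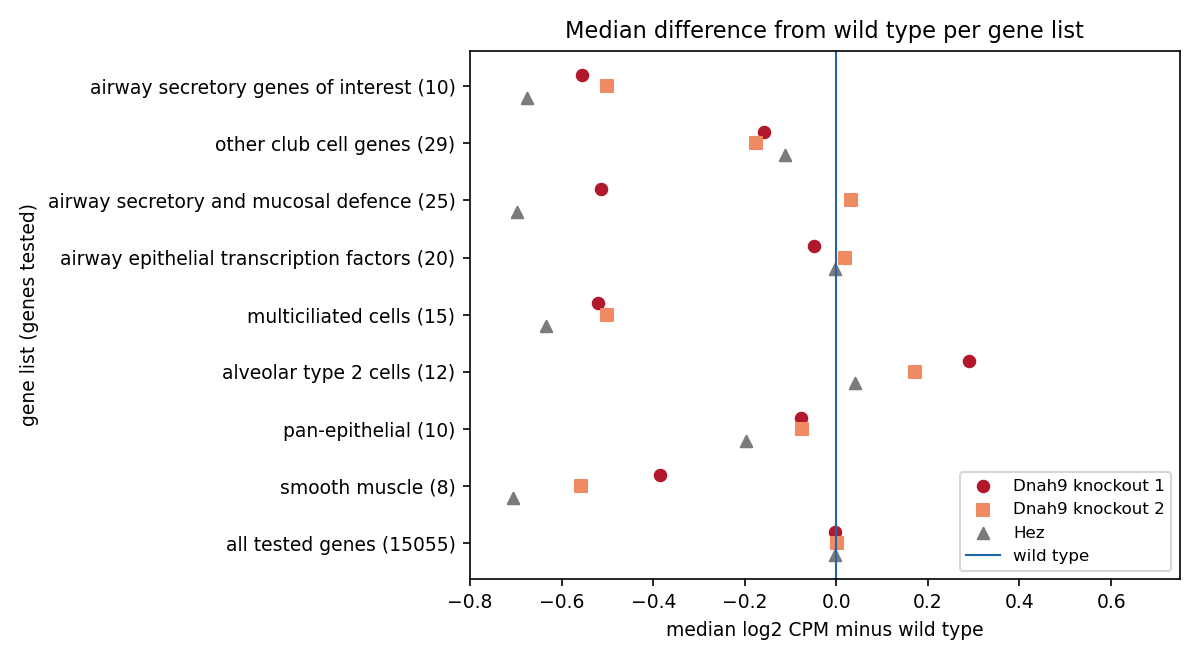
Median log2 CPM difference from the wild-type library for each gene list with at least 8 tested genes, in knockout libraries 1 and 2 and in Hez; the line at 0 is wild type. The medians of the 10 secretory genes and of the multiciliated and smooth muscle markers lie between -0.71 and -0.39 in all 3 libraries. Those of the alveolar type 2 markers lie above 0. In Hez the secretory median falls between members at -1.47 to -1.03 and members at -0.32 to -0.04.

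Genes whose pattern over the 4 libraries was most like the median of the 10 members were sought among 12075 genes with a mean of 5 CPM or more. In Hez that median lay in a gap between members. The difference from wild type was -0.68 at the median, -1.47 to -1.03 for 5 members and -0.32 to -0.04 for the rest. Likeness was the Euclidean distance between log2 CPM profiles, each centred on its own mean, and with 4 shared libraries it is a description. The nearest were Cfap65 (distance 0.0478), Foxj1 (0.0506), Calml4 (0.0571), Lgr6 (0.0623) and Chad (0.0635). Foxj1 stood at 70.6 and 70.9 CPM in the knockout libraries, 68.4 CPM in Hez and 104 CPM in wild type. Nearest to Scgb3a1 alone were Igdcc4 (0.183), Vwa3b (0.232), Tmem232 (0.272), Cfap45 (0.272) and Nek10 (0.279).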

How the data were processed

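RNA sequencing libraries of mouse lung came from a TruSeq kit and an Illumina HiSeq instrument, per the labels' protocols. The authors deposited raw read counts per gene and FPKM values for 4 libraries, per the file headers, with gene positions on GRCm39, the build in the submitters' processing notes. No source used here gives the aligner, counting tool or strand setting. None of the table's other genes overlaps the 10 genes described. Replicate numbers of the knockout libraries follow sample order, and nothing says whether they are separate animals, so the p-values reflect only how these libraries vary, which may be technical.

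Counts were scaled by TMM (factors 0.993 to 1.01), filtered with filterByExpr (minimum count 10) and tested two-sided with the quasi-likelihood test of edgeR 4.0.16 (R 4.3.3) in 3 groups with 1 residual degree of freedom, or 2 groups with 2, adjusted over all 15055 or 14674 genes tested. The moderated spread had 7.02 or 5.72 prior degrees of freedom, and standard errors are the log2 fold divided by the square root of F. Log2 CPM used a prior count of 2. The fits were also run on counts simulated with the same spread in every library, which cannot check whether the single libraries vary alike. Alternatives used DESeq2 1.42.0 and limma 3.58.1, including log2 FPKM with pseudocounts of 0.5, 0.1 and 1.

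The 10 genes and the gene lists were chosen with earlier results of these data known. Named beside them were, of each list, the 3 tested genes with the highest mean CPM, any that passed, and the 5 nearest profiles. Chil4, Clca1, Cnn1, Muc5b, Retnla, Sult1d1 and Tff2 were named after their values were seen. Promoters are RefSeq's on GRCm38.p6, and their coordinates were not compared with those of the table.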

Additional observations from a re-analysis of the deposited data

How the results depend on the processing

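The log2 fold against wild type was negative for all 10 genes under the 13 alternatives tried. Each alternative used the same single wild-type library, and both knockout libraries lay below it for all 10 genes. The alternatives thus tested the sign little. The count of these genes called was 3 by edgeR, with DESeq2 size factors, library totals, DESeq2, limma-voom or the 2 groups alone. It was 1 (Scgb3a1) with no filter on low counts or a mean of at least 10 CPM, and 0 with limma on log2 FPKM under each pseudocount and without an FPKM filter. Of all genes, 8 were called by edgeR, 4 under either of these count filters, 16 with DESeq2 and 0 with limma on log2 FPKM. Against Hez all counts of the 10 genes were 0, and of all genes 1 was called by edgeR, 7 by DESeq2 and 0 with limma on log2 FPKM. The near-zero fold of Scgb1a1 against Hez turned to -0.0010 in limma on log2 FPKM.

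With wild type and Hez together, the count of the 10 genes was 1 with DESeq2 (Cyp2f2, log2 fold -0.36) and 0 to 3 with 1 library left out. The 3 were Scgb3a1 (-1.06), Scgb3a2 (-0.88) and Bpifa1 (-1.33) without Hez, which leaves knockout against wild type. Of all genes 2 were called by edgeR, 33 with DESeq2, 1 with limma-voom or a mean of at least 10 CPM, 0 with limma on log2 FPKM and 1 to 107 with 1 library left out (107 without knockout 1, 24 without knockout 2, 8 without Hez, 1 without wild type). Without wild type the fold turned to 0.0035 for Scgb1a1, 0.40 for Scgb3a1, 0.14 for Scgb3a2, 0.48 for Bpifb1, 0.11 for Reg3g and 0.0187 for Gabrp, and without knockout 1 to 0.15 for Bpifb1. With 1 library left out the folds ran from -0.32 to 0.0035 for Scgb1a1, -1.01 to 0.48 for Bpifb1 and -0.25 to 0.02 for Gabrp. The cause was not tested. In the 3-group fit, leaving out a knockout library left no residual degree of freedom, so only values were taken, from -1.82 to -0.69 for Reg3g and from -1.52 to -0.36 for Bpifb1 against wild type; against Hez they ran from -0.56 to 0.57 for Reg3g and from -0.20 to 0.95 for Bpifb1. No paired analysis was possible, because wild type and Hez had 1 library each and the labels give no pairs. Depth limits little here: the fewest reads of any of the 10 genes in a library were 608.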
